A study of Mus musculus with 30 samples.

Results

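The subunits of the proteasome were followed at the RNA level in muscle satellite cells (SCs), the stem cells of skeletal muscle. Members were all genes whose symbol in the array's annotation is Psma, Psmb, Psmc or Psmd followed by a number, without the immunoproteasome genes Psmb8 and Psmb9. Of the 19938 genes measured by a probe set of their own, 37 met this rule, 17 in the 20S core (Psma and Psmb) and 20 in the 19S cap (Psmc and Psmd). RNA came from 30 Affymetrix Mouse Gene 1.0 ST arrays, 3 in each of 10 groups, all from hindlimb muscle. From wild-type C57BL6 mice, VCAM+ cells were sorted after endothelial (CD31), blood (CD45) and Sca1+ cells had been gated out. In tamoxifen-injected Pax7CreER/+;ROSA26eYFP/+ mice, in which Cre from the Pax7 locus switches on YFP in SCs and their descendants, YFP+ cells were sorted. Cells of uninjured muscle are called quiescent satellite cells (QSCs), and cells taken after an injury with BaCl2 are called activated satellite cells (ASCs). Young mice, 2 to 3 months old, gave QSCs and ASCs at 36, 60 and 84 h in both sorts. Old mice, 22 to 24 months old, gave VCAM+ QSCs and VCAM+ ASCs at 60 h. All groups share enzymatic digestion of the muscle and cell sorting before RNA was extracted, and nothing in the labels tells if a group's 3 arrays hold RNA of separate animals, so that p-values measure only the spread between these arrays.

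The proteasome is the protease that degrades most ubiquitin-tagged proteins of a cell. Its 20S core is a barrel of outer alpha rings and inner beta rings, and only a few beta subunits cut peptide bonds. The 19S cap recognises ubiquitin chains, removes them, and unfolds the substrate with a ring of ATPases before it enters the core. In muscle the complex is best known for the protein loss of atrophy, and its genes are known to be induced together when degradation capacity falls short.

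Values below are log2 intensities unless named as linear, and a difference between groups is a log2 difference. A member is said to have risen or fallen where the adjusted p of limma's moderated test, corrected over all 19938 genes, was under 0.05 and the fold was at least 1.5. The 30 arrays had similar medians (7.03 to 7.16) and arrays of a group correlated at 0.996 to 0.9983 across genes. The spread between arrays of a group, pooled over groups, was an SD of 0.0559 for the median member (0.0298 to 0.1272) and of 0.10 for the median gene. Psma8, the alpha subunit of testis, and Psmb11, the beta subunit of the thymus, did not exceed 6.74 on any array, whereas no value of the other 35 members was below 7.43. Psmb10, an immunoproteasome subunit, is kept by the rule. The annotation gives 5 members more than 1 probe set (Psma3, Psma5, Psmb3, Psmc1 and Psmd2), of which the brightest was used. These probe sets moved alike, with 60 h differences in VCAM cells of 2.01 and 1.90 for Psmc1 and of 0.68, 0.71 and 0.64 for Psma3.

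RefSeq start-site windows (GRCm38.p6, 250 bases before to 50 bases after the start) were at hand for 30 of the 37 genes, in 32 windows. Shown first are the windows of Psmb5, which encodes the chymotrypsin-like catalytic subunit, of Psmd10 and Psmd5, 2 members with large changes, and of Psmb4, a member that changed little. Capitals mark the motifs searched on both strands, which were TGACNNNGC (the antioxidant response element bound by NRF factors), CCAAT (the NF-Y box), GGGCGG (the GC box), TTTCCCGC and TTTGGCGC (E2F), TGACGTCA (the cAMP response element) and GCGCANGCG (nuclear respiratory factor). A GC box and TTTCCCGC read on the opposite strand can overlap.
Psmb5, chr14:54617946-54618245, minus strand: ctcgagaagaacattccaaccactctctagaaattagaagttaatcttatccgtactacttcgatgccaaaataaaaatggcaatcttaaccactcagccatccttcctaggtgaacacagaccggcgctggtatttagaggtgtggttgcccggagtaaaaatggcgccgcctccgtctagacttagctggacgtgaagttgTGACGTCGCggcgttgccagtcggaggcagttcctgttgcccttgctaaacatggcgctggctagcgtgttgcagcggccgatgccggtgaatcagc
Psmd10, chrX:140956662-140956961, minus strand: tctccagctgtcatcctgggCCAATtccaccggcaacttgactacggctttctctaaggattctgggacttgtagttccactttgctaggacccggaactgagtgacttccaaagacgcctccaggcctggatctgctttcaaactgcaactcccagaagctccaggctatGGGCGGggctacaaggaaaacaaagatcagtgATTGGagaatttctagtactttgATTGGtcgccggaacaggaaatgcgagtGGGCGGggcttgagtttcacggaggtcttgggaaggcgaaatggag
Psmd5, chr2:34870913-34871212, minus strand: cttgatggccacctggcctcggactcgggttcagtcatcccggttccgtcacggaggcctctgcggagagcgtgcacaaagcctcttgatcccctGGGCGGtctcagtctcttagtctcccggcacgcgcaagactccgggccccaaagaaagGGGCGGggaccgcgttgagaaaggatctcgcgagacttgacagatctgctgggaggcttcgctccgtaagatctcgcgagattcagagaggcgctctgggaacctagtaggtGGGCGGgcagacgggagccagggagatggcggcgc
Psmb4, chr3:94886909-94887208, minus strand: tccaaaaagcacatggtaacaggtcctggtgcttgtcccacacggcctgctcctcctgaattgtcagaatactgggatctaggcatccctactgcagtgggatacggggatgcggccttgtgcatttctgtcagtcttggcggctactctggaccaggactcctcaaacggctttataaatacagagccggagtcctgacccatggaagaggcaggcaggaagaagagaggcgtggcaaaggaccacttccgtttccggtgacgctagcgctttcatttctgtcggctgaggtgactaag

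The Psmb5 window held the antioxidant response element and none of the other motifs, the Psmd10 window held CCAAT and GC boxes, the Psmd5 window held GC boxes, and the Psmb4 window held none of the 7 motifs. Across the member windows, the antioxidant response element was found in 5 of 32 (15.6%), against 12.4% of all 32851 windows. The other genes with this element are shown by the stretch around the match, in capitals, because they span a catalytic subunit, an ATPase, a lid subunit and a member that changed little.
Psmb6, chr11:70525338-70525366, plus strand: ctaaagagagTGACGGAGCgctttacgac
Psmc6, chr14:45329587-45329615, plus strand: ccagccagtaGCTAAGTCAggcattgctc
Psmd12, chr11:107479278-107479306, plus strand: tctGCTGTGTCAcatttgcccccctcaga
Psmd9, chr5:123228149-123228177, plus strand: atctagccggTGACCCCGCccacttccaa

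CCAAT was found in 12 of 32 member windows (37.5%) and 37.4% of all windows, and the GC box in 18 of 32 (56.2%) against 35.7%. GCGCANGCG was found in 6 of 32 (18.8%) against 6.25%, and TTTCCCGC in only 2 of 32 (6.25%) against 1.07%. TTTGGCGC and TGACGTCA were in no member window (0.514% and 1.79% of all windows). Each match is a description of the letters in the window, and nothing was measured of binding.

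Proteasome subunit RNA was higher in ASCs than in QSCs in both sorts and at all times. In VCAM cells 25 of 37 members rose at 36 h (13.2% of all genes rose), 31 at 60 h (16.6% of all genes) and 31 at 84 h (16.4% of all genes). In YFP cells 23 members rose at 36 h (10.1% of all genes), 26 at 60 h (17.2% of all genes) and 29 at 84 h (17% of all genes). No member fell in any of these 6 comparisons, while 9.72%, 12.6% and 11.2% of all genes fell in VCAM cells and 6.14%, 12.8% and 11.2% in YFP cells. By the adjusted p alone, with no threshold on the fold, 36 members were higher at each time in VCAM cells (28%, 29.4% and 30.4% of all genes), and 34, 35 and 34 in YFP cells (24%, 30.5% and 30.1%). Psmb11 was the only member lower by the adjusted p alone, at 84 h in VCAM cells and at 36 and 84 h in YFP cells (27.9%, 30.3% and 30.4% of all genes were lower in VCAM and 25%, 31.1% and 34.1% in YFP cells). The median difference of the members was 0.92, 1.26 and 1.17 in VCAM cells, and 0.83, 1.24 and 1.10 in YFP cells, whereas the median over all genes lay between -0.08 and -0.01. All 6 comparisons were made over 3 arrays a group, and those of 1 sort share their QSC arrays. In all, 22 members rose in each of the 6 comparisons (6.15% of all genes did), 8 of the core and 14 of the cap, and 4 members rose in none (Psma8, Psmb4, Psmb11 and Psmd9).

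**Figure D1:**
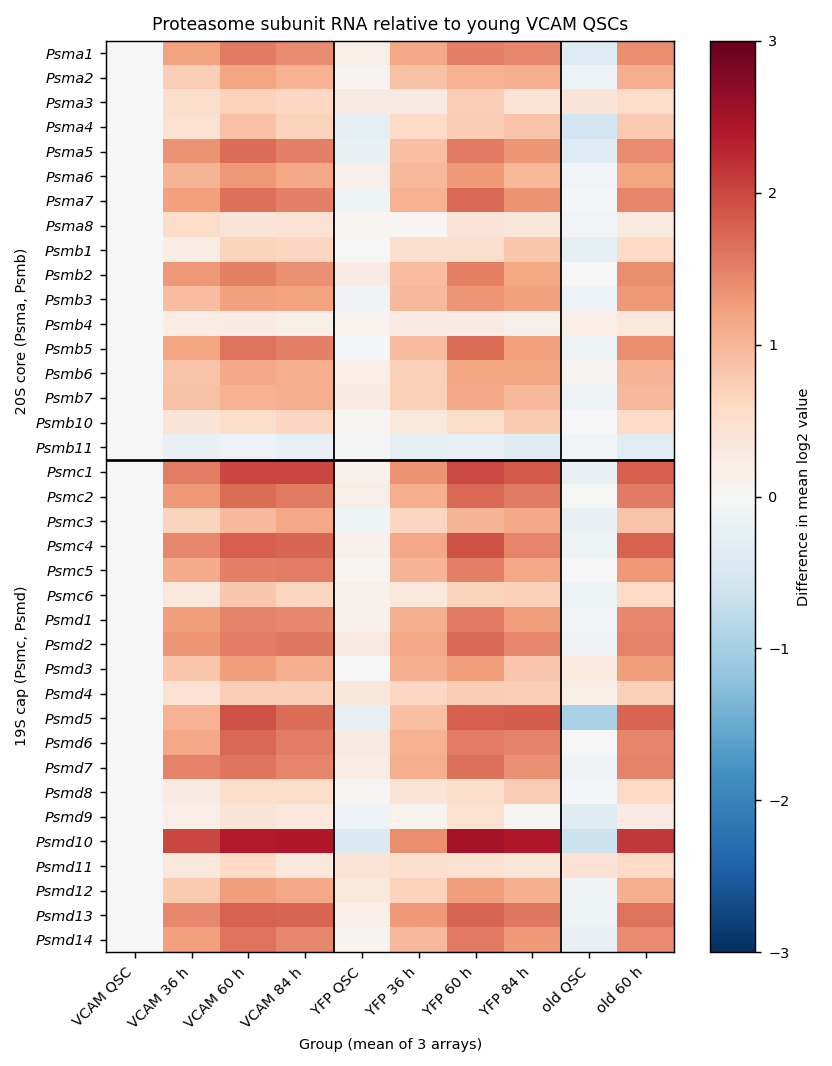
Mean log2 value of each of the 37 members (rows, core above and cap below) in each of the 10 groups (columns), as the difference from the mean of young VCAM QSCs. Nearly all rows are red in the ASC columns, with Psmd10 darkest, and Psmb4, Psmd9 and Psmb11 are among the palest.

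Among the catalytic subunits, Psmb5 showed the largest differences. It read 8.58, 8.47 and 8.54 in young VCAM QSCs, 9.78, 9.64 and 9.73 at 36 h, 10.16, 10.11 and 10.18 at 60 h, and 10.01, 9.99 and 10.10 at 84 h. The highest QSC array (8.58) lay below the lowest ASC array (9.64), so that QSCs and ASCs did not overlap. The differences from QSCs were 1.19, 1.62 and 1.51 (SE 0.06 each), and at 60 h the fold was 3.07 with an adjusted p of 1e-18. In YFP cells Psmb5 rose by 1.00, 1.72 and 1.29.

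Psmb6, the caspase-like subunit, read 10.19, 10.20 and 10.29 in young VCAM QSCs and 11.34, 11.32 and 11.41 at 60 h. Its 60 h difference was 1.13 (SE 0.05, 2.19-fold, adjusted p = 2e-16) with no overlap between the groups. Psmb7, the trypsin-like subunit, read 10.92, 11.11 and 11.11 in the same QSCs and 12.07, 12.08 and 12.08 at 60 h. Its difference was 1.03 (SE 0.04, 2.04-fold, adjusted p = 2e-17). In YFP cells at 36 h both passed the adjusted p but not the fold, with differences of 0.51 for Psmb6 and 0.47 for Psmb7. Psmb10, the immunoproteasome counterpart of Psmb7, differed by 0.38, 0.53 and 0.64 in VCAM cells and by 0.29, 0.53 and 0.75 in YFP cells, and rose only at 84 h by the criteria used. Its rise at 84 h in VCAM cells was not called without the first of the 84 h VCAM arrays (0.58), and after quantile normalization neither rise was called (0.51 in VCAM and 0.54 in YFP cells).

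Of the 7 alpha subunits other than Psma8, which form the rings at the ends of the barrel, all 7 rose at 60 h in VCAM cells, by 0.68 (Psma3) to 1.69 (Psma5). After quantile normalization of the genes Psma3 was just under the fold (0.57). Psma5 read 9.23, 9.28 and 9.37 in young VCAM QSCs and 10.91, 10.93 and 11.10 at 60 h. This amounts to 3.22-fold (SE 0.06 on the log2 scale, adjusted p = 8.2e-20). Psma7 (1.66) and Psma1 (1.56) followed. Psma3 stood apart from the other alpha subunits in YFP cells, where it differed from QSCs by 0.01, 0.48 and 0.16. Its YFP QSC arrays read 11.33, 11.25 and 11.28 and its 36 h arrays 11.29, 11.26 and 11.36, so that these groups overlapped. The non-catalytic beta subunits Psmb2 and Psmb3 rose in all 6 comparisons, Psmb2 by 1.51 and Psmb3 by 1.23 at 60 h in VCAM cells. Psmb1 rose in 3 of the 6, and after quantile normalization its rises at 60 and 84 h in VCAM cells were under the fold (0.49 and 0.50). The rise of Psmb2 at 36 h in YFP cells was not called after median centring (0.58).

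The 6 ATPases of the cap (Psmc1 to Psmc6) all rose at 60 h in VCAM cells, with a median of 1.60. Psmc1 read 9.35, 9.47 and 9.51 in young VCAM QSCs, 10.95, 10.99 and 10.97 at 36 h, 11.40, 11.48 and 11.49 at 60 h, and 11.51, 11.49 and 11.33 at 84 h. The 60 h difference was 2.01 (SE 0.06, 4.03-fold, adjusted p = 5.2e-21), and no ASC array overlapped a QSC array. Psmc4 followed with 1.79 in either sort at 60 h. Psmc6 was the ATPase with the smallest difference, 0.31 at 36 h and 0.80 at 60 h in VCAM cells.

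The other cap subunits (Psmd) include scaffolds, ubiquitin receptors, a deubiquitinase and assembly chaperones, and 12 of 14 rose at 60 h in VCAM cells. The scaffold subunits Psmd1 and Psmd2 rose by 1.48 and 1.52. Psmd14, the deubiquitinase that cleaves ubiquitin chains from the substrate, rose by 1.63. Psmd4, a ubiquitin receptor, rose by less (0.73, and 0.56, under the fold, after quantile normalization), and in YFP cells it differed by 0.44 at 60 h, under the fold used. The lid subunits Psmd13 (1.78), Psmd6 (1.73) and Psmd7 (1.60) were near the top of the range, and Psmd12, also of the lid, rose by 1.26.

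Psmd10 (gankyrin), Psmd5 and Psmd9 are chaperones that help to assemble the ATPase ring and are not part of the finished particle. Psmd10 had the largest difference of all members in each of the 6 comparisons. It read 8.03, 8.17 and 8.14 in young VCAM QSCs, 10.05, 10.12 and 10.14 at 36 h, 10.41, 10.44 and 10.59 at 60 h, and 10.52, 10.47 and 10.57 at 84 h. In YFP cells it read 7.63, 7.63 and 7.79 in QSCs, 9.46, 9.51 and 9.54 at 36 h, 10.55, 10.60 and 10.70 at 60 h, and 10.51, 10.52 and 10.53 at 84 h. Every ASC array lay above every QSC array. The rises were 1.99, 2.37 and 2.41 in VCAM cells and 1.83, 2.94 and 2.84 in YFP cells (SE 0.06), and the last of these is 7.15-fold with an adjusted p of 3.3e-24.

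Psmd5 read 8.47, 8.67 and 8.62 in young VCAM QSCs, 9.56, 9.71 and 9.63 at 36 h, 10.45, 10.48 and 10.57 at 60 h, and 10.23, 10.28 and 10.26 at 84 h. Its groups did not overlap, and it rose by 1.05, 1.92 and 1.67. In YFP cells the rises of Psmd5 were 1.14, 2.04 and 2.06. Psmd9 behaved otherwise. It read 9.11, 9.05 and 9.03 in young VCAM QSCs and 9.42, 9.48 and 9.42 at 60 h, a difference of 0.38 (SE 0.06) that is under the fold used.

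**Figure D2:**
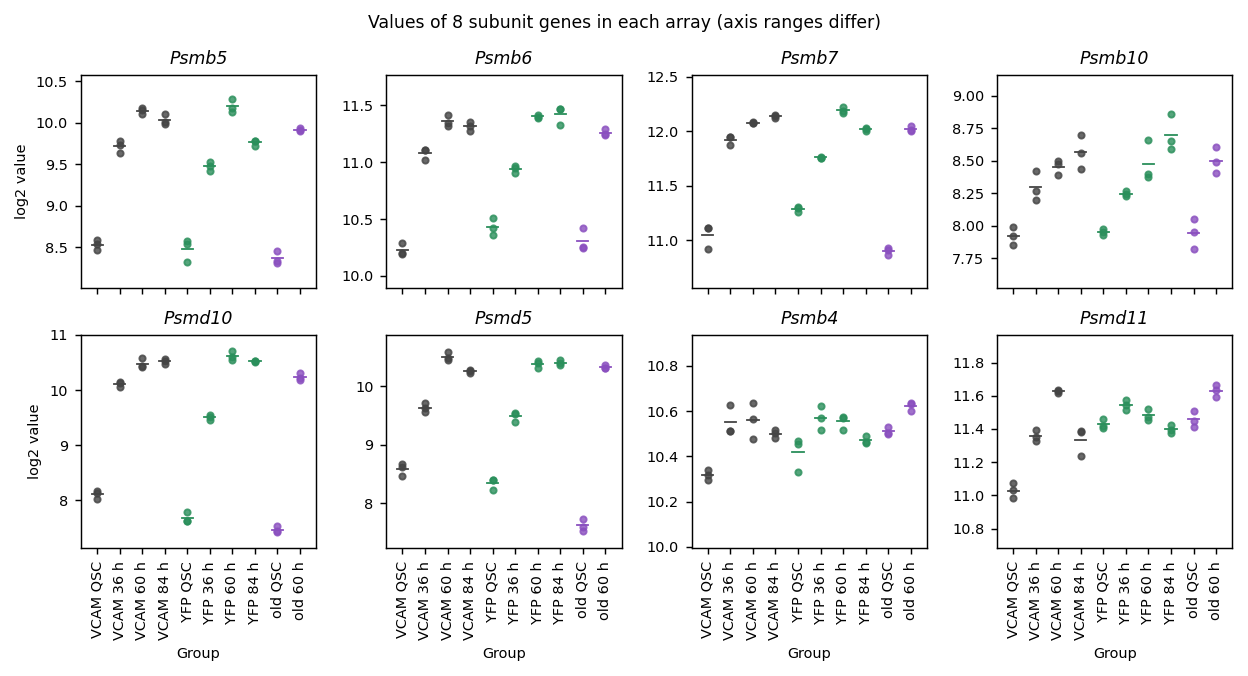
Log2 values of 8 members in each array (points) with the group mean (bars), in grey for young VCAM, green for young YFP and purple for old VCAM cells, each panel with its own axis range. In Psmb5, Psmb6, Psmb7, Psmd10 and Psmd5 every ASC array lies above every QSC array, whereas Psmb4 lies between 10.29 and 10.64 in all arrays.

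A small number of subunits changed little. Psmb4, a beta subunit of the core, read 10.32, 10.34 and 10.29 in young VCAM QSCs and 10.48, 10.56 and 10.64 at 60 h, and differed by 0.24 (95% interval 0.15 to 0.34). It differed from QSCs by at most 0.24 in any of the 6 comparisons. Psmd11, a lid subunit, rose only at 60 h in VCAM cells, by 0.60, and not without the first VCAM QSC array (0.57) or after quantile normalization (0.47). In YFP cells Psmd11 differed by 0.12, 0.05 and -0.03, and its QSC arrays there (11.42, 11.41 and 11.46) were near its 60 h arrays (11.52, 11.45 and 11.47). Psmd8, another lid subunit, rose in young cells only at 84 h in the YFP sort (0.74). Of the dim members, Psma8 differed by 0.38 and Psmb11 by -0.18 at 60 h in VCAM cells. Psmb11 was below its QSC mean in all 6 comparisons, by 0.18 to 0.34, none of them called.

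Members were also compared by their pattern over the 10 group means. Against the median of the other members, Pearson's r was 0.998 for Psmc1 and Psmc2, 0.997 for Psmd13 and 0.996 for Psmd14, and it was above 0.9 for 31 members. The lowest were Psmb11 (-0.832), Psmd11 (0.485), Psmb4 (0.661), Psma3 (0.788), Psma8 (0.839) and Psmd9 (0.879). These are descriptions over 10 groups whose arrays were normalized together.

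The cap differed from QSCs by more than the core. The median difference in VCAM cells was 0.85, 1.13 and 1.09 for the 17 core members and 1.14, 1.52 and 1.45 for the 20 cap members. In YFP cells it was 0.67, 0.97 and 0.93 for the core and 0.88, 1.43 and 1.17 for the cap. Without the dim Psma8 and Psmb11, the core medians were 0.87, 1.18 and 1.09 in VCAM cells and 0.79, 1.05 and 0.99 in YFP cells, still below the cap. By count, 13 of 17 core and 18 of 20 cap members rose at 60 h in VCAM cells, and 11 of 17 and 15 of 20 in YFP cells. The dim Psma8 and Psmb11 rose in neither sort. Without them the core counts were 13 of 15 and 11 of 15, near the shares of the cap. Without the assembly chaperones Psmd5, Psmd9 and Psmd10, a choice made after seeing the data, the medians of the other 17 cap members were 1.17, 1.52 and 1.45 in VCAM cells and 0.88, 1.42 and 1.16 in YFP cells. The ranges overlapped widely, from -0.18 to 1.69 in the core, from 0.38 to 2.37 in the cap and from 0.53 to 2.01 in the cap without these chaperones at 60 h in VCAM cells.

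The same order was seen in each ASC array when the dim Psma8 and Psmb11 were counted in the core. Relative to the mean of young VCAM QSCs, the cap median then exceeded the core median by 0.24 to 0.43 in all 21 ASC arrays. It lay within -0.05 to 0.08 of the core median in the 9 QSC arrays. Medians of single arrays without these dim members were not computed, so the size of the gap per array depends on counting them. In the group differences from QSCs given above, the core median without them came closest to the cap at 36 h in YFP cells (0.79 against 0.88). The median of both parts together was 0.90 to 0.97 at 36 h, 1.24 to 1.34 at 60 h and 1.15 to 1.20 at 84 h in VCAM cells. No test of core against cap was made, since members are not replicates.

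**Figure D3:**
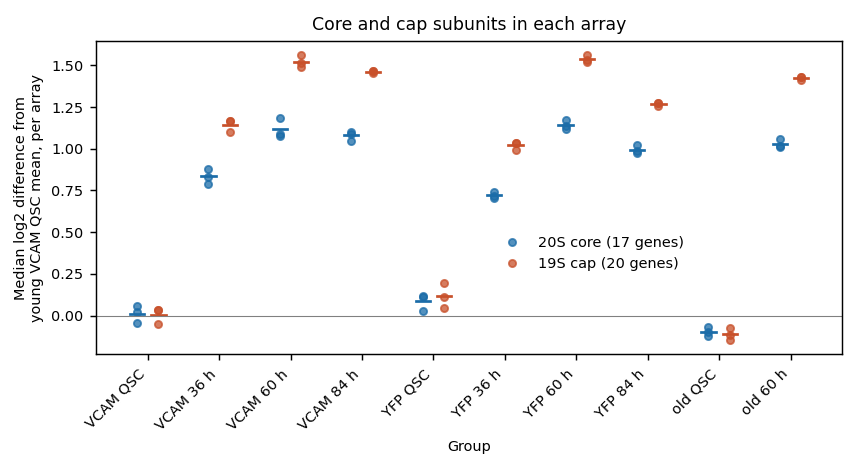
Median log2 difference from the young VCAM QSC mean over the 17 core members (blue, with the dim Psma8 and Psmb11) and the 20 cap members (red) in each array (points), with bars at the mean of the 3 arrays of a group. In every ASC group the cap points lie above the core points, by 0.24 to 0.43 within an array, and in QSC groups both lie near 0.

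By the median over members, the steps between successive times were smaller than the step from QSCs to 36 h. This did not hold for each member. In YFP cells Psma3 differed by 0.01 from QSCs to 36 h and by 0.47 from 36 to 60 h. From 36 to 60 h in VCAM cells only Psmd5 rose, by 0.87 (SE 0.06, 1.83-fold, adjusted p = 5.6e-12), while 6.26% of all genes rose. By the adjusted p alone, 32 of 37 members were higher (26.8% of all genes), none was lower (20.4% of all genes), and the median difference was 0.34. In YFP cells 9 members rose over the same step (8.73% of all genes), with a median over the 37 of 0.45, and 32 were higher and none lower by the adjusted p alone (29.5% and 22.3%). The 9 called members were Psmd10 (1.11), Psmd5 (0.90), Psmc4 (0.77), Psmb5 (0.72), Psma5 (0.66), Psmc1 (0.65), Psma7 (0.64), Psmc2 (0.62) and Psmb2 (0.60). Without the first of the 36 h YFP arrays Psmc2 and Psmb2 were not called (0.58 each), and after quantile normalization 5 members were called. The other probe sets of Psma5 (0.53) and Psmc1 (0.51) were under the fold in this step. With the mean of probe sets Psmc1 was not called (0.58). The smallest differences in this step were those of Psmd11 (-0.06) in the cap and Psmb4 (-0.02) in the core.

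From 60 to 84 h no member was called by limma in either sort (3.95% of all genes in VCAM and 6.86% in YFP cells). The unadjusted p was under 0.05 for 17 members in VCAM cells (35.9% of all genes) and for 23 in YFP cells (45.8% of all genes). By the adjusted p alone, 11 members were lower and 1 was higher in VCAM cells (13.4% and 14.6% of all genes), and 18 were lower and 3 higher in YFP cells (20.8% and 18.3% of all genes). The largest of these differences were Psmd11 (-0.29), Psmd5 (-0.25) and Psmc3 (0.19) in VCAM cells, and Psmd3 (-0.46), Psmc4 (-0.44) and Psmb5 (-0.43) in YFP cells.

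Of the 32 members that rose at any time in VCAM cells, 25 had their highest mean at 60 h, 7 at 84 h and 0 at 36 h. In YFP cells these numbers were 21, 8 and 0 of 29. Members that rose at 60 h had a median of 75.4% of their 60 h difference at 36 h already in VCAM cells (34.3% to 92.1%), and of 62.6% in YFP cells (39.6% to 85.2%).

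VCAM and YFP cells were compared at the same time. The sort, the genotype and tamoxifen differ together between them and cannot be told apart. In QSCs no member was called by limma (3.55% of all genes), though by the adjusted p alone 5 were higher and 16 lower in VCAM cells (15.2% and 14.8% of all genes), and 25 an unadjusted p of 0.05 (36.9% of all genes). The largest of these differences were Psmd10 (0.43), Psmd11 (-0.40) and Psmd4 (-0.34), VCAM minus YFP. At 36 h Psmd10 was called higher in VCAM cells (5.27% of all genes called in either direction), and 18 members were higher and 7 lower by the adjusted p alone (19.6% and 17.7%). Its arrays, listed above, did not overlap, and the difference was 0.60 (SE 0.06, 1.51-fold, adjusted p = 3.5e-09). This call just passed the fold and was lost without the third VCAM array (0.58) or the first YFP array (0.58) of that time. At 60 h and 84 h no member was called by limma (1.31% and 1.66% of all genes), and 11 and 20 members had an unadjusted p under 0.05 (25.1% and 31.9% of all genes). With the adjusted p alone, 3 were higher and 1 lower in VCAM cells at 60 h (5.06% and 7.56% of all genes), and 12 were higher and 2 lower at 84 h (9.88% and 10.8%). The largest differences were Psmd6 (0.20), Psmd2 (-0.18) and Psmb1 (0.16) at 60 h, and Psmc5 (0.38), Psmd3 (0.29) and Psmd9 (0.28) at 84 h.

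The response to injury was also compared between the sorts directly, as the difference of the 2 differences from QSCs. At 36 h it was larger in VCAM cells for Psmb2 and Psmd7 (9.09% of all genes called), and by the adjusted p alone the response was larger in VCAM cells for 18 members and smaller for 2 (16.3% and 14.9% of all genes), with a median of 0.19. Psmb2 read 9.28, 9.26 and 9.56 in VCAM and 9.50, 9.67 and 9.66 in YFP QSCs, and 10.65, 10.65 and 10.66 against 10.25, 10.28 and 10.31 at 36 h. Its rise was thus 1.29 in VCAM and 0.67 in YFP cells, a difference of 0.62 (SE 0.09, adjusted p = 2.3e-06). For Psmd7 the rises were 1.48 and 0.87, a difference of 0.61 (SE 0.08, adjusted p = 5.8e-07). Neither was called after quantile normalization of the genes (0.55 and 0.50), and without the first VCAM QSC array 0 members were called. At 60 and 84 h no member was called (4.99% and 6.56% of all genes), and 19 and 25 had an unadjusted p under 0.05 (33.2% and 35.9% of all genes). With the adjusted p alone, the response was larger in VCAM cells for 9 members and smaller for 3 at 60 h (11.7% and 12.7% of all genes), and larger for 17 and smaller for 4 at 84 h (13.5% and 13.9%), with medians of 0.11 and 0.21. Psmd10 (-0.57), Psmd11 (0.54) and Psmd6 (0.48) differed most at 60 h, and Psma3 (0.47), Psmb2 (0.45) and Psma4 (-0.44) at 84 h. Across the 37 members, the VCAM and YFP differences from QSCs had a Pearson's r of 0.86, 0.95 and 0.91 at 36, 60 and 84 h, given as a description, since members are not replicates.

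**Figure D4:**
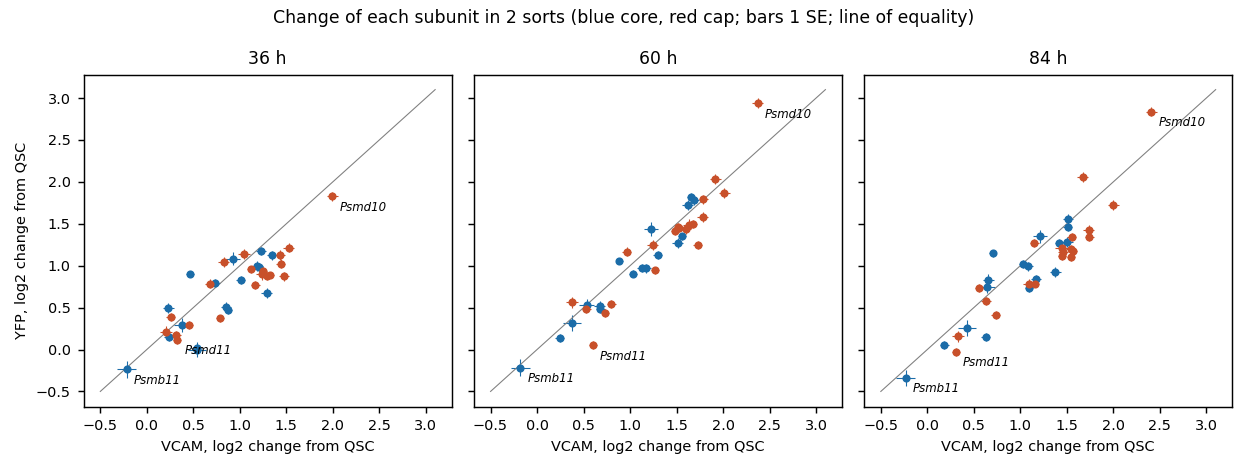
Log2 difference from QSCs of each member in VCAM cells (horizontal axis) and YFP cells (vertical axis) at 36, 60 and 84 h, with core members in blue, cap members in red, bars of 1 SE and a line of equality. At 36 and 84 h 28 of 37 points, and at 60 h 26, lie on the VCAM side of the line, with Psmd10 at the upper end and Psmb11 at the lower end of each panel.

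Old and young VCAM cells were compared to ask how age bears on these genes. In QSCs, Psmd5 and Psmd10 were lower in old mice and no member was called higher (4.7% and 3.04% of all genes). Psmd5 read 7.73, 7.60 and 7.54 in old QSCs, against 8.47, 8.67 and 8.62 in young. Every old array lay below every young array, and the difference was -0.96 (SE 0.06, 1.95-fold lower, adjusted p = 2.2e-12). Psmd10 read 7.53, 7.43 and 7.44 in old QSCs, against 8.03, 8.17 and 8.14 in young. These groups did not overlap either, with a difference of -0.65 (SE 0.06, 1.56-fold lower, adjusted p = 6.4e-10). Psmd5 and Psmd10 were called in the same direction with any 1 array of these groups left out, from -1.02 to -0.92 and from -0.69 to -0.62. Psmd10 is also the member with the largest rise after injury. Young YFP QSCs had a mean of 7.68 for Psmd10 and of 8.35 for Psmd5. Both lay between the means of old (7.465 and 7.62) and young VCAM QSCs (8.11 and 8.59). No old YFP cells were measured, so whether the age difference holds against that sort was not tested.

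Psma4 was just outside the fold of 1.5 in the age comparison. It read 10.19, 10.14 and 10.06 in old and 10.67, 10.75 and 10.72 in young QSCs, a difference of -0.58 (SE 0.04, adjusted p = 2.6e-12). Differences of the other sign were seen in Psmd11 (0.43), Psma3 (0.38), Psmd3 (0.30), Psmb4 (0.19) and Psmd4 (0.19), none of them called. For Psma4, Psmd11 and Psma3, young YFP QSCs (means of 10.42, 11.43 and 11.29) also lay between young and old VCAM QSCs. The old VCAM means were 10.13, 11.46 and 11.41, and the young VCAM means 10.71, 11.03 and 11.03. In old QSCs, 16 members were lower and 5 higher by the adjusted p alone (21.3% and 16.7% of all genes). The median difference over the 37 members was -0.11, against 0.02 over all genes. Psmb5, Psmb6 and Psmb7 differed by -0.16, 0.08 and -0.15, and Psmb10 by 0.02.

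At 60 h after injury no member differed between old and young cells by limma's call (5.41% of all genes), and 18 members had an unadjusted p under 0.05 (37.5% of all genes). By the adjusted p alone 14 members were lower in old cells and 0 higher (13.7% and 14.2% of all genes). The largest differences were Psma5 (-0.27), Psmd6 (-0.27) and Psmd10 (-0.24), and the median was -0.11. Psmd5 read 10.31, 10.31 and 10.36 in old ASCs and 10.45, 10.48 and 10.57 in young ASCs. This difference was -0.18 (95% interval -0.30 to -0.05).

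Within old cells, 30 of 37 members rose from QSCs to 60 h (17.8% of all genes) and none fell (11.7%), with a median of 1.29 against -0.11 over all genes. By the adjusted p alone 36 were higher and 1, Psmb11, was lower (29.9% and 39.3% of all genes). The core gave 12 of 17 with a median of 1.26, and the cap 18 of 20 with a median of 1.49. Psmd10 rose by 2.77 (6.84-fold) and Psmd5 by 2.70 (6.52-fold), followed by Psmc1 (2.03) and Psmc4 (1.92). Psmd9, which rose in no young comparison, passed the fold here at 0.62, and so did Psmd8 at 0.66, which was not called after quantile normalization (0.52). Psmd9 was not called without the second old QSC array (0.57), without the second old ASC array (0.58) or after quantile normalization (0.35). At 60 h, 28 members rose in both young and old VCAM cells, as did 13.9% of all genes. The difference between the old and the young response was called for Psmd5 only (8.97% of all genes called), at 0.79 (SE 0.09, adjusted p = 7.9e-08), and it was 0.69 after median centring and 0.83 after quantile normalization. By the adjusted p alone, Psma4 (0.50) and Psmd10 (0.40) also had a larger response in old cells and Psma3 (-0.51) and Psmd11 (-0.42) a smaller one, out of 5 members with a larger and 6 with a smaller response (18.7% and 12.6% of all genes). The old QSC arrays enter both the age comparison and this one, so that these values are not independent.

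**Figure D5:**
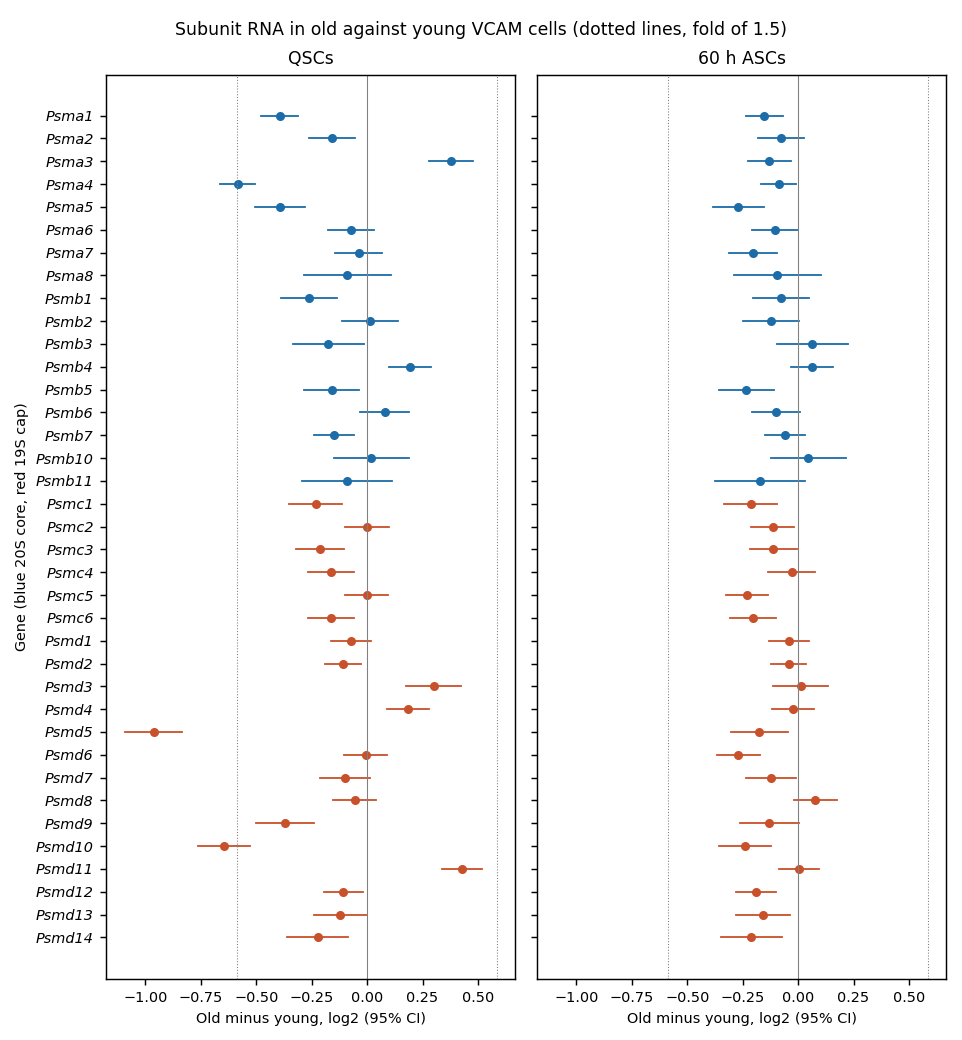
Old minus young log2 difference of each member in VCAM QSCs (left) and VCAM ASCs at 60 h (right), with 95% intervals, core in blue and cap in red, and dotted lines at a fold of 1.5 either way. In QSCs Psmd5 (-0.96) and Psmd10 (-0.65) lie beyond the line and Psma4 (-0.58) just short of it, and at 60 h all members lie within -0.27 to 0.08.

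Of 38 listed genes that activate, assemble, feed or control the proteasome, 29 were measured by a probe set of their own. In VCAM cells 8 rose and 1 fell at 36 h (13.2% and 9.72% of all genes), 12 were up and 2 down at 60 h (16.6% and 12.6%), and 9 up and 2 down at 84 h (16.4% and 11.2%). In YFP cells 6, 12 and 8 rose and 0, 2 and 2 fell, and in old cells at 60 h 10 rose and 1 fell, against the shares of all genes given above for these comparisons. In young VCAM cells at 60 h the largest rises were those of the cap's deubiquitinases. Uchl5 read 8.15, 8.39 and 8.26 in young VCAM QSCs and 10.86, 10.81 and 10.82 at 60 h, without overlap. Its difference was 2.56 (SE 0.06, 5.91-fold, adjusted p = 1.8e-23), beside 2.37 for Psmd10. Usp14 rose by 1.83 at 60 h. Of the assembly factors, Pomp, which matures the core, rose by 1.34, and Psmg1 and Psmg2, which pair to build the alpha ring, by 1.26 each, whereas Psmg3 (0.37) and Psmg4 (-0.03) were not called. Vcp, the segregase that extracts ubiquitinated proteins, rose by 0.78 and its cofactor Nploc4 by 1.11.

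Among the alternative caps, Psme3, the nuclear activator, rose by 1.31 at 60 h in VCAM and by 0.67 in YFP cells. The interferon-inducible Psme1 and Psme2 differed by 0.18 and 0.06 in VCAM cells at that time. Both were higher in YFP cells at 84 h, without overlap. There Psme1 read 10.11, 10.17 and 10.17 in QSCs and 10.79, 10.79 and 10.825 at 84 h. Psme2 read 7.94, 8.44 and 8.10 in YFP QSCs and 8.91, 9.03 and 8.97 at 84 h. The immunoproteasome genes outside the rule, Psmb8 and Psmb9, were called in none of the comparisons with QSCs, with differences of -0.54 and -0.41 at 60 h in young VCAM cells. At 60 h Psmb8 read 7.21, 7.31 and 7.44 in old and 6.92, 6.53 and 6.62 in young VCAM cells, without overlap. The old and young arrays of Psmb9 overlapped at that time. Zfand2a and Zfand5, partners of the cap in stressed cells, fell by 1.44 and 1.10 at 60 h in VCAM cells. Nfe2l1, the transcription factor that drives subunit genes when the proteasome is inhibited, differed by 0.57, 0.08 and 0.23 in VCAM cells, not called. Sem1, a small lid subunit without a Psm symbol here, differed by 0.28 at 60 h. Adrm1, a ubiquitin receptor of the cap, was not measured by a probe set of its own.

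In old QSCs Nfe2l2, the antioxidant transcription factor, was higher by 0.63 (SE 0.04, adjusted p = 4.5e-12), while Psmg2 was lower (-0.76) and so was Zfand2a (-0.95). Zfand2a read 10.70, 10.66 and 10.72 in old QSCs and 10.84, 10.87 and 10.88 in old ASCs at 60 h, against 11.64, 11.65 and 11.62 and then 10.17, 10.20 and 10.23 in young cells. Its difference after injury was -1.44 in young and 0.17 in old cells, and these differed by 1.61 (SE 0.06, adjusted p = 3.6e-16).

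The sorted cells carried RNA of genes listed here as markers of other cell types, and these levels moved with injury. Which cells this RNA came from was not tested. Of 9 SC markers, among them Pax7 and Myf5, 6 fell at 36 h in VCAM cells, and their summed linear intensity went from 38310 to 39110 in QSC arrays to 18320 to 18970. Of 12 macrophage markers all 12 rose at 36 h, and their sum went from 1294 to 1331 in QSCs to 15500 to 16130 at 36 h, 4445 to 4653 at 60 h and 9629 to 9843 at 84 h. In YFP cells the macrophage sum was 1318 to 1387, 13130 to 13350, 8162 to 8521 and 16320 to 16590. Of 5 measured fibroblast markers 4 rose at 36 h in VCAM cells (sums of 17760 to 18070 in QSCs and 41560 to 42660 at 36 h). Of 6 endothelial markers 5 fell at 60 h in VCAM cells (4557 to 4877 in QSCs, 797.3 to 816 at 60 h), all 6 pericyte markers fell (11410 to 12060, then 1518 to 1658), and at 36 h 3 of 6 neutrophil markers rose (453.1 to 517.8, then 601.6 to 662.9). In YFP cells at 36 h, by contrast, 5 endothelial markers rose and 1 fell (4694 to 5151 in QSCs, 7921 to 8150 at 36 h), and 1 pericyte marker rose and 1 fell (4940 to 5120, then 5195 to 5306). None of 5 measured lymphocyte markers was called at 36, 60 or 84 h in either sort (sums of 286.8 to 373.9). The part of these cells in the subunit differences was not tested, and in bulk RNA fewer cells of a type and less RNA per cell cannot be told apart.

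From 36 to 60 h in VCAM cells all 12 macrophage and all 5 fibroblast markers fell, while 32 subunits were higher by the adjusted p and none lower. In the age comparison at 60 h, all 12 macrophage markers were higher in old cells (14570 to 15250 against 4445 to 4653 in young), while the subunits had a median difference of -0.11. Of the endothelial, pericyte and fibroblast markers 5 of 6, 3 of 6 and 3 of 5 were higher in these old cells. The 9 SC markers had sums of 18080 to 18330 in old and 17570 to 18640 in young cells at 60 h. Their mean log2 value was 10.40 in old and 10.11 in young cells. In old QSCs, in which Psmd5 and Psmd10 were lower, 2 of 12 macrophage markers were called higher (1809 to 1851 against 1294 to 1331), 3 of 9 SC markers lower (31160 to 32090 against 38310 to 39110) and 4 of 6 pericyte markers lower (7212 to 7473 against 11410 to 12060). Of 6 neutrophil markers 2 were higher (631.8 to 654.2 against 453.1 to 517.8), and of 5 fibroblast markers 3 were higher and 2 lower (17290 to 18160 against 17760 to 18070).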

How the data were processed

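RNA of 30 samples was measured on Affymetrix Mouse Gene 1.0 ST arrays from 100 ng of total RNA. The authors deposited log2 intensities from Affymetrix Expression Console by RMA (background correction, quantile normalization, summary of probes into probe sets), with versions not given in the sources used here. Of 35556 probe sets, 21789 carried 1 gene symbol, 1621 several and 12146 none in the platform annotation. Where a gene had several (999 genes), its brightest was taken, which left 19938 genes. RMA sums probes that copies of a gene elsewhere in the genome may share. Groups follow the labels. All arrays entered 1 linear model of limma 3.58.1 (R 4.3.3, lmFit, eBayes) with 10 group means and 20 residual degrees of freedom, and p-values of 21 comparisons were adjusted by Benjamini-Hochberg over all genes, two-sided. The number of arrays limits the precision. The members and lists, and the threshold on the fold, were chosen with earlier results of these data known. Named members are the catalytic subunits, up to 6 called members of the core and of the cap with the largest change, the smallest change of each, every called member (or the 3 largest changes where none was called) between sorts and ages, dim members, and fixed other proteasome genes. Further names (Psma1, Psma3, Psma4, Psmb1, Psmb3, Psmc6, Psmd1, Psmd2, Psmd4, Psmd8, Psmd12, Psme1 and Psme2) were chosen after their values were seen. The code was tested on simulated data. Alternatives were other fold thresholds, median centring, quantile normalization, leaving out dim genes (under 6 in all groups), the mean of probe sets, only the groups compared, a trended robust variance, the replicate number as a block, and leaving out each array. Of the members, leaving out dim genes removed Psma8 and kept Psmb11, which is also called dim above. The main model did not pair samples across groups by replicate number.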

Additional observations from a re-analysis of the deposited data

Results flagged for a closer look

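The response to injury at 60 h differed between old and young VCAM cells for Psmd5 by 0.79 (adjusted p = 7.9e-08) and for Zfand2a by 1.61 (adjusted p = 3.6e-16) in limma's test of the difference. Psmd5 was lower in old than in young QSCs (-0.96) and near the young value at 60 h (-0.18). Zfand2a was lower in old QSCs (-0.95) and higher in old cells at 60 h (0.67).

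Between the VCAM and YFP sorts, the response at 36 h was larger in VCAM cells by 0.62 for Psmb2 and by 0.61 for Psmd7. Both were under the fold after quantile normalization (0.55 and 0.50) and without the first VCAM QSC array (0.57 and 0.56), as were Psmb2 without the second VCAM QSC array (0.56) and Psmd7 without the first YFP QSC array (0.57). The response of Psme3 was larger in VCAM cells by 0.63 at 60 h and by 0.83 at 84 h, and that of Psmb9 was smaller by 0.62 at 84 h (-0.62, adjusted p = 0.0011). The Psmb9 difference was under the fold without the third YFP QSC array (-0.47) or the second 84 h VCAM array (-0.57), and no other array left out ended one of the calls of Psme3, Psmb9 and Zfand2a. Psme3 read 9.83, 9.97 and 9.97 in VCAM QSCs and 10.46, 10.42 and 10.52 in YFP QSCs.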

How the results depend on the processing

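Under the alternative settings, 301 counts of called members were within 1.5 times the reported count and 38 were not. No single member that was followed changed its direction where it was called in the main fit or under the alternative. Changes of sign in differences that were called in neither were not counted. The fold threshold decided most of the differences. Without it, the count was 35 of 37 at 36 h in YFP cells, 32 from 36 to 60 h in either sort, 12 and 21 from 60 to 84 h in VCAM and YFP cells, 21, 25, 4 and 14 between the sorts in QSCs and at 36, 60 and 84 h, 20, 12 and 21 for the difference of the sorts' responses at 36, 60 and 84 h, 21 and 14 with age in QSCs and at 60 h, and 11 for the difference of the age groups' responses. With a fold of at least 2, it was 9 at 36 h in YFP cells, 0 from 36 to 60 h in VCAM and 1 in YFP cells, 0 between sorts at 36 h, 0 for the sorts' responses at 36 h, 0 with age in QSCs and 0 for the age groups' responses.

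Median centring gave 5 and 14 members from 36 to 60 h in VCAM and YFP cells, 4 and 1 for the sorts' responses at 36 and 60 h, and 2 for the age groups' responses. In the 36 to 60 h step of VCAM cells it shifted the all-gene median to 0.11 from 0.00 and the members' median to 0.46 from 0.34. Quantile normalization gave 5 members from 36 to 60 h in YFP cells and 0 for the sorts' responses at 36 h. With 1 array left out, the count ranged from 0 to 1 between sorts at 36 h, from 0 to 2 for the sorts' responses at 36 h and from 0 to 1 at 60 h, where a smaller response of VCAM cells was called in 1 member without the first VCAM QSC, the third 60 h VCAM, the third YFP QSC or the first 60 h YFP array. The 0 for the sorts' responses at 36 h came without the first VCAM QSC array, and a count of 1 without the second VCAM QSC or the first YFP QSC array. The cause of these changes was not tested.

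The main model did not pair samples by replicate number. Replicate numbers were tried as a block, since 27 of 135 same-numbered pairs and 25 of 270 others correlated above 0.1 after removal of group means. The mean correlation was 0.035 and -0.0175. With this replicate block the counts of called members were 25, 31 and 31 in VCAM cells and 23, 26 and 29 in YFP cells against QSCs, and no count moved by over 1.5 times.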
